A study of Homo sapiens with 4 samples.

Results

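The matrix metalloproteinase (MMP) cluster at 11q22 was followed in 4 chromosome contact maps of IMR90, an established line of normal human lung fibroblasts. The cluster was taken as the bins of about 200 kb that hold or touch MMP7, MMP8, MMP10, MMP1, MMP3, MMP12 and MMP13, with 10 bins on each side as flanks. This gave 4 cluster bins and 20 flanking bins out of 661 bins of chromosome 11 and 14444 bins in all, and all 24 passed the filter on listed pairs. The region was chosen from measured values, because the bin with the MMP1 and MMP3 starts had one of the lowest changes of distal contact with inactive chromatin in senescent minus growing cells. Values from that comparison are therefore given as a description, and no test was run on any of them.

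The samples of the series carried the pLNCX2 ER:HRAS G12V construct, an oncogenic RAS fused to an oestrogen receptor domain that 4OHT switches on, and pMSCV miR shHMGA1, a hairpin against HMGA1 (shA1). HMGA1 is an architectural chromatin protein that binds the minor groove of AT-rich DNA. In Grow-shA1 no treatment was listed, and in OIS-shA1 (oncogene-induced senescence) RAS had been switched on for 6 days with 100 nM 4OHT. Both conditions had 2 samples, which were pooled into 1 map each. The matching Grow and OIS maps without the hairpin belong to no sample of the series, since the authors took them from their own prior work. The study's methods give them as the matching maps of growing and RAS-induced senescent IMR90, and the labels used here do not describe them. With 1 map per condition no spread between replicates is known, and the effect of shA1 cannot be told apart from the origin of the maps. Hi-C records which DNA ends lay near each other, and neither the level of HMGA1 nor the identity of the cells could be checked from it. Each map is an average over many cells, and a small change in all cells and a large change in some of them cannot be told apart.

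MMPs are secreted zinc-dependent proteases that cut collagen and other parts of the extracellular matrix. MMP1, MMP8 and MMP13 are collagenases, MMP3 and MMP10 are stromelysins, MMP7 is matrilysin and MMP12 is the macrophage elastase. Several of them belong to the senescence-associated secretory phenotype, the set of proteins that senescent fibroblasts release. At the scale of these maps, chromosomes fold into active (A) and inactive (B) compartments. Contacts between bins of like compartment are more frequent than the distance along the chromosome predicts, and contacts between unlike bins are less frequent.

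The cluster lies on the long arm of chromosome 11, in hg19 coordinates, and every MMP gene in it is transcribed from the minus strand, towards the centromere. Bin 1 (chr11:102194819-102399241) holds the starts of BIRC2, an inhibitor of apoptosis, and of TMEM123. It also holds most of the body of MMP7, which spans chr11:102391239-102401481, but not its start. Bin 2 (chr11:102399242-102598962) holds the starts of MMP7, MMP20, MMP27 and MMP8. Bin 3 (chr11:102598963-102799800) holds the starts of MMP10, MMP1, MMP3 and MMP12. Bin 4 (chr11:102799801-103000028) holds the starts of MMP13, of DCUN1D5 and of DYNC2H1, the heavy chain of the ciliary dynein 2 motor. The MMP1 gene spans chr11:102660132-102668891 and MMP3 spans chr11:102706532-102714340, so their contacts cannot be separated at this bin size. The same holds for all genes that share a bin, and values are given for bins and not for genes.

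The borders of the bins are cut sites of HindIII, the enzyme used for the maps. The sites that bound the 3 bins with MMP starts are shown because they fix which gene falls in which bin. They are plus-strand GRCh37 sequence with the 6-base HindIII site in capitals, and each border falls after the first base of the site.
Border of bins 1 and 2, chr11:102399226-102399261: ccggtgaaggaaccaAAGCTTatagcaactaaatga
Border of bins 2 and 3, chr11:102598947-102598982: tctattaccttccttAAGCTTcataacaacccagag
Border of bins 3 and 4, chr11:102799785-102799820: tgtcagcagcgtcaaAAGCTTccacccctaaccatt
End of bin 4, chr11:103000013-103000048: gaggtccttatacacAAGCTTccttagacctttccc
The first of these sites lies in an intron of MMP7, 2239 bases from its start. The site between bins 2 and 3 lies in no protein-coding gene, 1182 bases from the start of MMP8. The site between bins 3 and 4 is also intergenic and lies 26660 bases from the start of MMP13. The last site lies in an intron of DYNC2H1.

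The cluster bins were of middling base composition. Their GC content was 40.0%, 39.4%, 39.7% and 37.1% for bins 1 to 4, against a median of 40.1% over the 626 kept bins of chromosome 11. Uninterrupted runs of at least 20 A or T bases, the kind of sequence that AT-hook proteins such as HMGA1 prefer, occurred 26.9, 27.5, 24.9 and 35.0 times per 100 kb in bins 1 to 4, and the chromosome median was 26.3. Only bin 4 stood towards the upper end of the chromosome, at the 79.9th percentile. The longest such run of bin 3, the bin with the lowest distal contact in OIS, is shown in capitals on the plus strand of GRCh37.
Bin 3, chr11:102758607-102758687: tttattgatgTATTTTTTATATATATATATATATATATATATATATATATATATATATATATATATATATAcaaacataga
This run is 61 bases long and intergenic, 12905 bases from the start of MMP12.

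RefSeq promoter windows, from 250 bases before to 50 bases after a start, were given for 5 of the 9 MMP genes of the cluster (MMP7, MMP20, MMP27, MMP8 and MMP10). MMP1, MMP3, MMP12 and MMP13 had no entry in the table. Each of the 5 windows of the GRCh38.p14 table matched chromosome 11 of GRCh37 exactly once, and the coordinates given are those of the match. Other chromosomes were not searched. The windows of MMP7, the member at the border of bins 1 and 2, and of MMP10, in the bin of MMP1 and MMP3, are shown on the minus strand with motif matches in capitals. The AP-1 motif was searched as TGACTCA on both strands. The TATA box was searched as TATAAA, also on both strands, and the pair of motifs do not overlap in these windows.
MMP7, chr11:102401429-102401728: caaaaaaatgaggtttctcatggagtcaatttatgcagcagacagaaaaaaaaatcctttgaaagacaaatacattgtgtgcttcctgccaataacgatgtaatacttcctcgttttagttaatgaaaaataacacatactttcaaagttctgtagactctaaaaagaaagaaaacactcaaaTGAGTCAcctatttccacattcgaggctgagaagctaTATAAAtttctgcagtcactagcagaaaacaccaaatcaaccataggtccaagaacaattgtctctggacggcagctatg
MMP10, chr11:102651310-102651609: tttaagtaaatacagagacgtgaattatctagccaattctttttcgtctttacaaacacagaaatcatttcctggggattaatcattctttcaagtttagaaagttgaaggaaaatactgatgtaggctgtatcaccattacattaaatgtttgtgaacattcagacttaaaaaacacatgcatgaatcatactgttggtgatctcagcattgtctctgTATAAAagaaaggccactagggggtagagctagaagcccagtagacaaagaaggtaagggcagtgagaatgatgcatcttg
The MMP7 window held an AP-1 match 67 bases before the start and a TATA match 30 bases before it. The MMP10 window held a TATA match 31 bases before the start and no match to these AP-1 letters, which says nothing about the factor elsewhere. The windows of MMP20, MMP27 and MMP8 held no AP-1 match either, so MMP7 alone of the 5 held one. TATA matches lay 72 bases before the start in MMP20 and 110 in MMP8, and MMP27 held none. The MMP8 window spans chr11:102595636-102595935 and belongs to a RefSeq start. That start differs from chr11:102597781, the MMP8 start used for the bins and their borders. Of 35116 promoter windows in the table, 4.95% held the AP-1 letters and 11.5% held the TATA letters on either strand.

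All 4 cluster bins belonged to the A compartment in each of the 4 maps. The compartment score is the first principal component of how the contact profiles of all bins of a chromosome correlate, and positive values mark the A compartment. In Grow the scores were 1.18, 1.29, 1.27 and 1.32 for bins 1 to 4, at or above the 90.3rd percentile of the A bins of chromosome 11. In OIS they were 0.95, 1.14, 0.97 and 1.06, between the 68.8th and the 89.3rd percentile. The mean over the 4 bins was 1.27 in Grow-shA1 and 1.12 in OIS-shA1. The difference of the means in OIS minus Grow was -0.23, and it was 0.055 when the component was taken for each chromosome arm alone, so no direction of the compartment score was kept across these settings. On the centromere side of the cluster the score in Grow declined bin by bin from the BIRC3 bin to the bin with the start of PGR, a B bin. The bin at chr11:101399894-101599133, in the body of TRPC6, which encodes a cation channel, scored -0.014 in Grow, -0.66 in Grow-shA1, 0.44 in OIS and -0.22 in OIS-shA1. It was the only bin of the 24 that lay in different compartments in Grow and in OIS.

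Distal contact of the cluster with B bins, the measure that drew attention to the region, was lower in OIS than in Grow in every cluster bin. Distal means partners over 2 Mb away on chromosome 11, and a contact score is the authors' contact value relative to the mean at the same distance, in score units. The mean over the 4 bins was -0.45 ± 0.13 in Grow, -0.51 ± 0.14 in Grow-shA1, -0.96 ± 0.08 in OIS and -0.75 ± 0.08 in OIS-shA1 (SD over the n = 4 bins, which is a spread along the chromosome and not between replicates). The mean difference was -0.51 in OIS minus Grow and -0.23 in OIS-shA1 minus Grow-shA1. OIS-shA1 minus OIS gave 0.22 and Grow-shA1 minus Grow gave -0.058. The first and the third of these differences share the OIS map, so their opposite signs are not separate evidence. The difference between the RAS change with shA1 and that without it, called the interaction, was 0.27.

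The bin of MMP10, MMP1, MMP3 and MMP12 (bin 3) was the lowest of the cluster in OIS. Its distal score with B bins was -0.37 in Grow, -0.38 in Grow-shA1, -1.06 in OIS and -0.84 in OIS-shA1, over 160 partner bins. The Grow and Grow-shA1 values were nearly equal, and both RAS maps lay below them. The difference in OIS minus Grow was -0.69, at the 0.251th percentile of the 13565 measured bins of the genome and at the 0.0543th percentile of the A bins. With shA1 the RAS difference was -0.46.

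The bin of MMP13, a collagenase, followed the same order (bin 4). Its distal score with B bins was -0.37 in Grow, -0.46 in Grow-shA1, -0.98 in OIS and -0.76 in OIS-shA1, over 168 partner bins. The RAS difference was -0.61 without shA1 and -0.30 with it. The bin of MMP7, MMP20, MMP27 and MMP8 (bin 2) scored -0.44 in Grow, -0.50 in Grow-shA1, -0.87 in OIS and -0.74 in OIS-shA1, over 177 partner bins. Its RAS differences were -0.44 and -0.23.

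Bin 1, with BIRC2 and TMEM123, behaved differently with shA1. It scored -0.65 in Grow, -0.71 in Grow-shA1, -0.94 in OIS and -0.65 in OIS-shA1, over 136 partner bins. Its RAS difference was -0.29 without shA1 and 0.063 with it, so that the OIS-shA1 value of bin 1 was close to that of Grow. The interaction was 0.35 in bin 1, 0.21 in bin 2, 0.23 in bin 3 and 0.31 in bin 4.

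**Figure D1:**
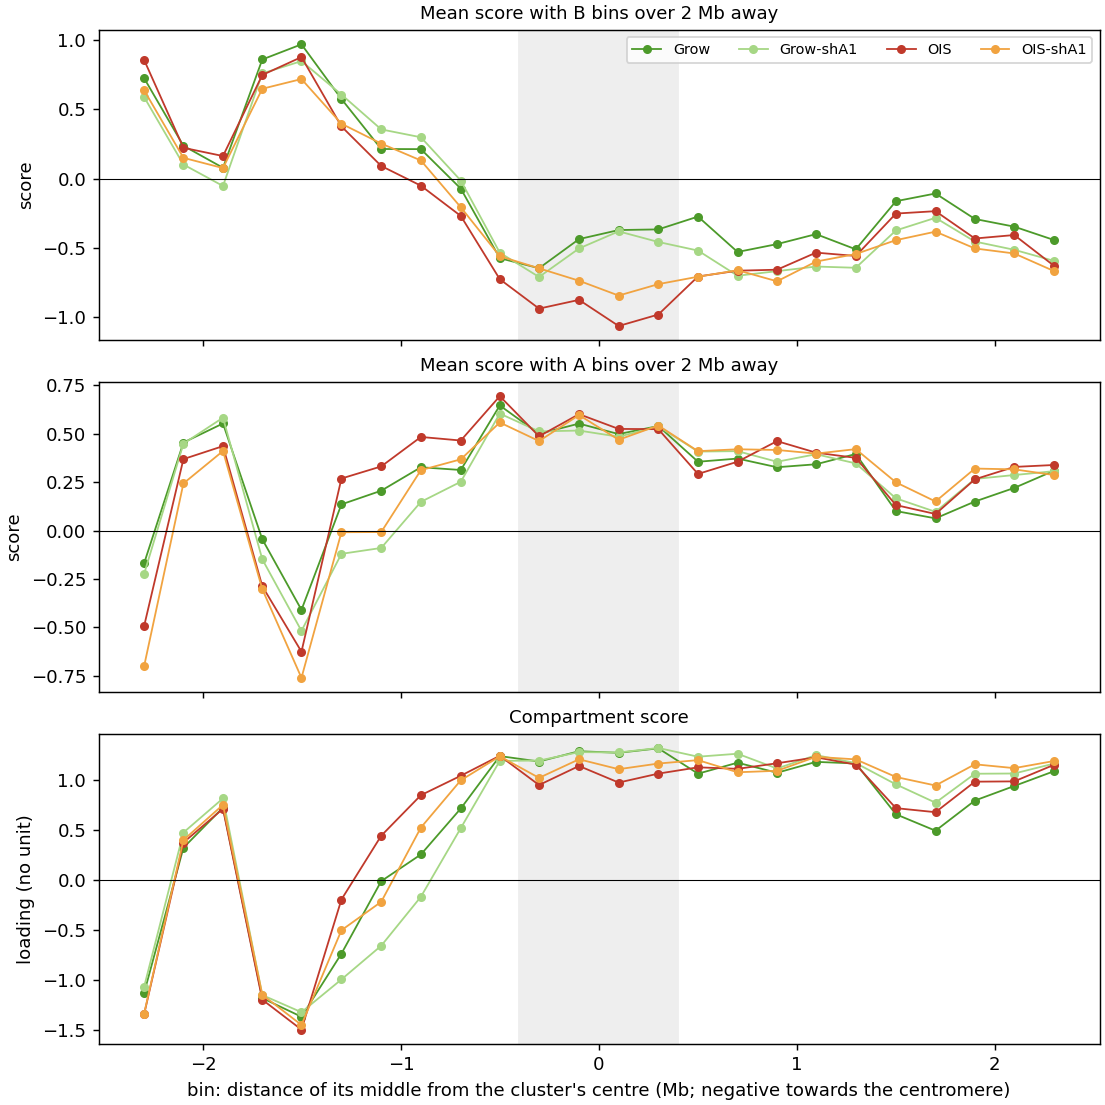
Mean score with distal B bins (top), mean score with distal A bins (middle) and compartment score (bottom) of the 24 bins, 1 point per bin and map, against the distance of the bin from the centre of the cluster. The cluster is shaded, and within it the OIS line lies below the other lines in the top panel, down to -1.06 in the bin of MMP1 and MMP3.

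A difference of -0.3 or lower was counted as a fall. In OIS minus Grow, 3 of the 4 cluster bins passed this limit, against 12.6% of all measured bins. In OIS-shA1 minus Grow-shA1, 2 of the 4 did, against 10.9% of all bins. In OIS-shA1 minus OIS none of the 4 rose by 0.3 or more, which 0.568% of all bins did, and the values ran from 0.14 to 0.29. In Grow-shA1 minus Grow none rose by 0.3 or more either, which 0.0442% of all bins did, and the 4 values lay between -0.091 and -0.0094. The first of these counts uses the comparison by which the region was chosen. Taken as windows of 4 adjacent bins, 0.551% of the 2902 windows that lie wholly in the A compartment had a mean in OIS minus Grow as low as the cluster's or lower, and the median window was at -0.098. The interaction of the cluster stood at the 98.8th percentile of those windows, whose median was 0.068. It contains the OIS minus Grow value by which the region was chosen, with its sign turned, so its rank is partly fixed by that choice and is no support.

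The number of pairs with a value differed between the maps. For the distal B partners of the cluster, Grow listed 84.4% of the pairs of chromosome 11, Grow-shA1 79.3%, OIS 59.3% and OIS-shA1 59.8%. For the distal A partners the shares ran from 96.0% to 99.7%. The means above use only pairs that all 4 maps list. When unlisted pairs were counted as 0, the cluster's difference in OIS minus Grow was -0.075, which does not reach the limit for a fall. That in OIS-shA1 minus Grow-shA1 was then 0.041. With unlisted pairs at the lowest score that the map lists at the same distance, these differences were -0.45 and -0.24. The part that listing has in the result was not tested.

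**Figure D2:**
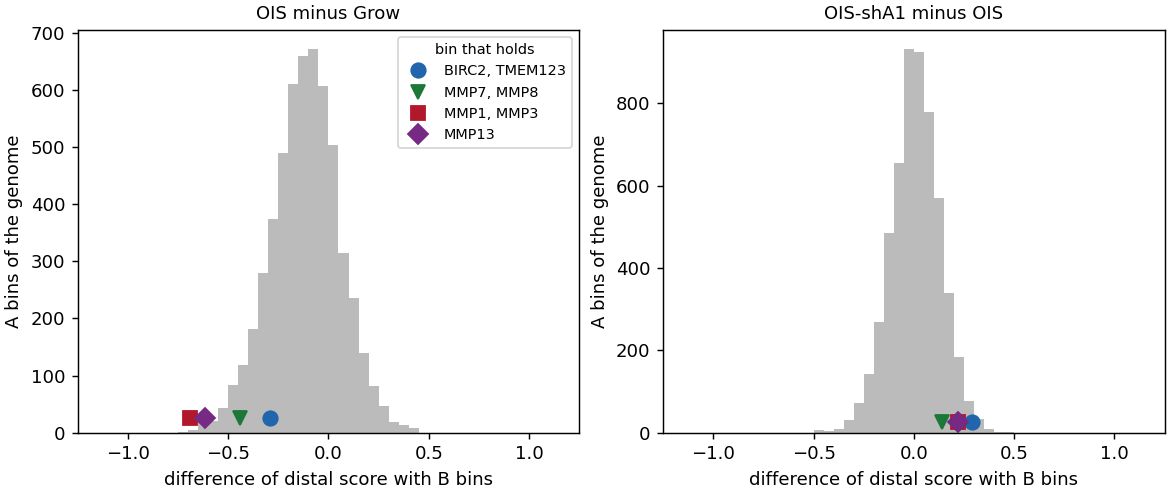
Histograms of the difference of distal score with B bins for the A bins of the genome, in OIS minus Grow (left) and OIS-shA1 minus OIS (right), with the 4 cluster bins marked at an arbitrary height. On the left the bin of MMP1 and MMP3 lies at -0.69 in the lower tail, and on the right the 4 bins lie between 0.14 and 0.29.

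Distal contact with A bins differed little between the maps. The mean over the 4 bins was 0.52 ± 0.03 in Grow, 0.51 ± 0.02 in Grow-shA1, 0.53 ± 0.05 in OIS and 0.52 ± 0.06 in OIS-shA1 (SD over the n = 4 bins). The ranges of the 4 maps over the cluster bins overlapped. The difference was 0.012 in OIS minus Grow, 0.0047 in OIS-shA1 minus Grow-shA1 and -0.017 in OIS-shA1 minus OIS. The first of these was -0.21 when each map's own compartments were used and 0.11 when each map was centred at every distance.

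The difference in distal contact with B bins was deepest in the cluster and shallower on both sides. Bin 1 at the centromere-side edge of the cluster was at -0.29, and its neighbour outside, which holds the start of the apoptosis inhibitor BIRC3, was at -0.15. At the other edge the MMP13 bin was at -0.61, the next bin, inside the body of DYNC2H1, at -0.43 and the one after it at -0.14. The reach was counted as the 4 cluster bins, whether or not each passed, plus the adjoining flanking bins at or under 50% of the cluster mean. In OIS minus Grow all 4 cluster bins passed and 1 flanking bin was added, the DYNC2H1 bin (chr11:102194819-103200705). At a limit of 25% of the mean 3 bins on the centromere side and 4 on the telomere side were added. In OIS-shA1 minus Grow-shA1, at 50% of that comparison's mean, only 3 of the 4 cluster bins passed, bin 1 being at 0.063, and the DYNC2H1 bin was again added. None of the 10 flanking bins on the centromere side and 1 of the 10 on the telomere side passed the limit of -0.3 in OIS minus Grow. The bins with the starts of YAP1, the Hippo pathway co-activator, and of CASP1, CASP4 and CASP5, the inflammatory caspases, were at -0.20 and -0.19. The bin with the start of PGR, the progesterone receptor gene, is itself a B bin and was at -0.092.

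The difference was largest for the nearest B partners. For partners at 2 to 5 Mb the cluster's score with B bins was -0.92 in Grow, -1.04 in Grow-shA1, -2.26 in OIS and -2.00 in OIS-shA1, over 80 pairs. OIS minus Grow was -1.34 there, while the other A bins of chromosome 11 had a mean of -0.34 in the same class. At 5 to 10 Mb the cluster was at -0.57 and the other A bins at -0.23, and at 10 to 20 Mb they were at -0.59 and -0.18. At 20 to 50 Mb the cluster's difference was -0.25, and over 50 Mb it was -0.16. In this farthest class OIS listed only 36.3% of the pairs, against 65.5% in Grow.
With shA1 the RAS difference was -0.96 at 2 to 5 Mb, -0.25 at 5 to 10 Mb, -0.34 at 10 to 20 Mb, 0.035 at 20 to 50 Mb and -0.0255 over 50 Mb. The interaction was positive in all 5 classes, from 0.13 to 0.38. At 2 to 5 Mb, where at least 94.3% of the pairs were listed in every map, it was 0.38. For the other A bins of chromosome 11 the RAS difference was also higher with shA1 in all 5 classes. It was -0.23 against -0.34 at 2 to 5 Mb, and 0.031 against -0.010 over 50 Mb. The cluster's interaction contains the value by which the region was chosen, so its sign is partly fixed by that choice. Contact with A partners at 2 to 5 Mb was also lower in OIS, by -0.19 over 33 pairs, and in OIS-shA1 against Grow-shA1 by -0.23.

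**Figure D3:**
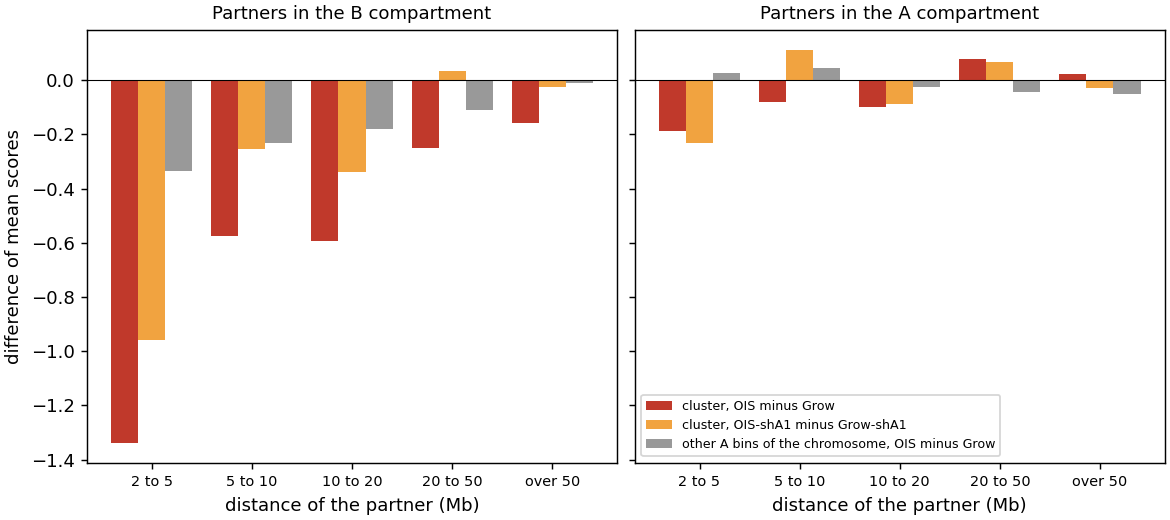
Difference of mean score by distance of the partner, for B partners (left) and A partners (right). Bars give the cluster in OIS minus Grow, the cluster in OIS-shA1 minus Grow-shA1, and all other A bins of chromosome 11 in OIS minus Grow. The cluster bar for B partners at 2 to 5 Mb reaches -1.34 and that of the other A bins -0.34.

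Along chromosome 11 the cluster's contact was lower in OIS than in Grow for 19 of 26 blocks of 5 Mb with at least 10 distal pairs. With shA1 it was lower for 16 of 26. The count without shA1 uses the comparison by which the region was chosen. The block at chr11:95002533-100000952 had the lowest difference. The cluster's score with it was -0.66 in Grow, -0.72 in Grow-shA1, -1.88 in OIS and -1.63 in OIS-shA1, over 78 pairs. The 2 RAS maps thus lay below the 2 Grow maps, with differences of -1.21 without shA1 and -0.91 with it. This block is 12% A by bins and holds 7 protein-coding gene starts, among them MAML2, a Notch co-activator, and CNTN5, a neuronal adhesion molecule. The next lowest were the distal part of the cluster's own block, with -0.93 over 20 pairs, and the block at the end of the long arm (chr11:129999863-135006516), with -0.52 over 61 pairs. The latter holds OPCML and NTM, a pair of neuronal adhesion genes, and ADAMTS8 and ADAMTS15, which encode other secreted metalloproteinases.

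The highest differences were found with 1 block on the short arm and 2 blocks of the long arm near the centromere. The block at chr11:29999405-34999975, with PAX6, WT1 and CAT, scored 0.33 in Grow, 0.12 in Grow-shA1, 0.74 in OIS and 0.48 in OIS-shA1. Its RAS difference was 0.41 without shA1 and 0.36 with it. The block at chr11:65004765-69999598, with 127 protein-coding starts including RELA, the NF-kappaB subunit, differed by 0.32 without shA1 and by -0.26 with it, but only 6 of its bins were kept and 20 pairs compared. The block at chr11:60000543-65004764, with 160 protein-coding starts, differed by 0.29 and 0.28. When unlisted pairs were counted as 0, 12 of 27 blocks were lower in OIS than in Grow.

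**Figure D4:**
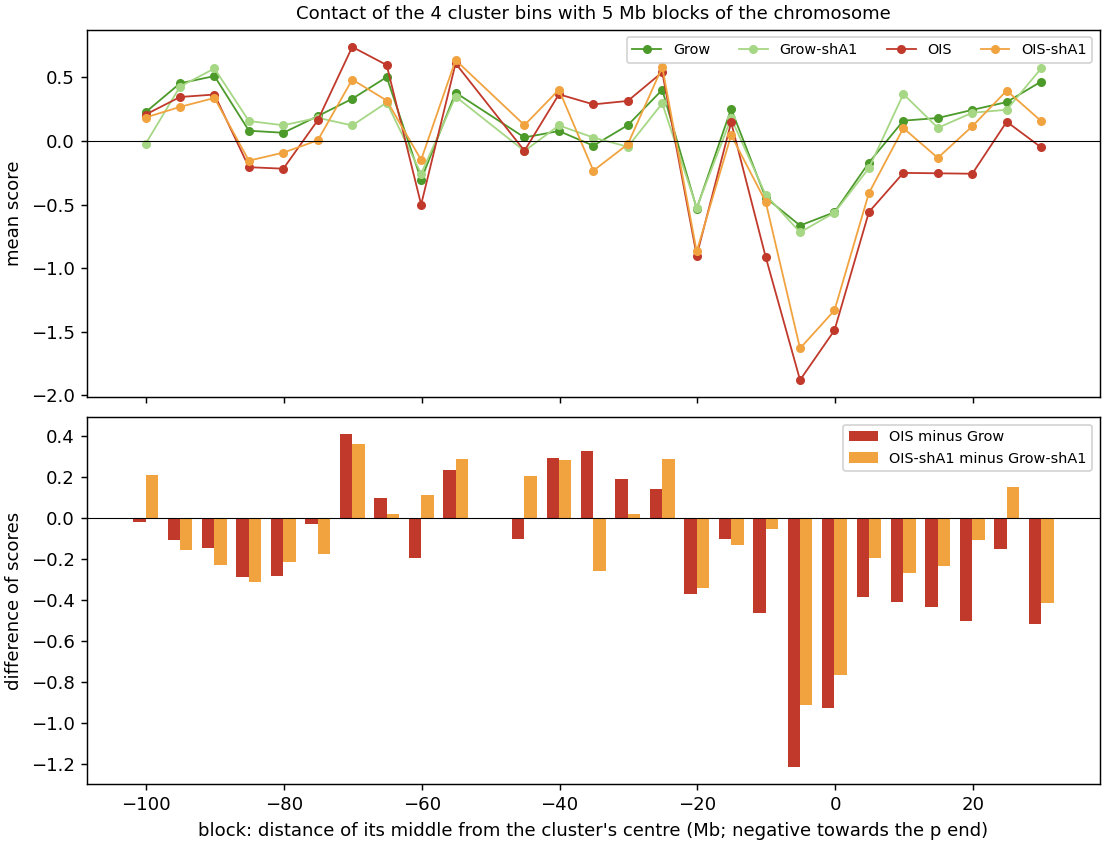
Mean score of the 4 cluster bins with 5 Mb blocks of chromosome 11 in each map (top) and its difference for the 2 RAS comparisons (bottom), against the distance of the block from the cluster. Points and bars stand for blocks with at least 10 distal pairs. The lowest point is the neighbouring block on the centromere side, at -1.88 in OIS, and blocks farther towards the p end include differences up to 0.41.

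The blocks mix compartments, so unbroken runs of at least 5 bins of the same compartment were also read. Of 21 such B runs, 19 had a lower score with the cluster in OIS than in Grow, with a median difference of -0.40. That count uses the comparison by which the region was chosen and is a description. Over all distal B partners, 75.4% of the A bins of the genome had a difference below 0 in OIS minus Grow. Of 16 A runs, 9 were lower and 7 higher, with a median of -0.058. The B run that begins 2 Mb from the cluster (chr11:96198064-100401163) had the lowest value of all runs, and CNTN5 was its only protein-coding start. The cluster scored -1.22 with it in Grow, -1.27 in Grow-shA1, -2.80 in OIS and -2.45 in OIS-shA1, over 64 pairs. On the telomere side the nearest B run (chr11:105999880-107792014), with GUCY1A2, CWF19L2, ALKBH8, ELMOD1 and SLN, scored -0.41 in Grow, -0.55 in Grow-shA1, -1.22 in OIS and -1.10 in OIS-shA1, and all of its pairs were listed in every map. Across the B runs the interaction was positive for 18 of 21, with a median of 0.25. This count is partly fixed by the choice of the region, because the interaction contains OIS minus Grow with its sign turned. Taken per bin over all distal B partners, 27.5% of the A bins of the genome had an interaction below 0, and their median was 0.060. The cluster's interaction was largest for the run at chr11:120396415-121402646, with TECTA, SC5D and SORL1. There the cluster scored -0.40 in Grow, -0.56 in Grow-shA1, -0.99 in OIS and -0.36 in OIS-shA1, so only the OIS map stood apart, over 14 pairs. Across the A runs the interaction was positive for 6 of 16, with a median of -0.056.
The A run with the highest difference in OIS minus Grow (chr11:60602486-61799043), with the fatty acid desaturase genes FADS1 and FADS2 and with FEN1, scored 0.37 in Grow, 0.38 in Grow-shA1, 0.88 in OIS and 0.97 in OIS-shA1, over 24 pairs.

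In OIS minus Grow, local contacts showed more contact among the 4 cluster bins and less with the bins of the PGR region. Within the cluster the mean over the 6 pairs of different bins was 0.93 in Grow, 0.89 in Grow-shA1, 1.20 in OIS and 1.03 in OIS-shA1. OIS was above Grow in 6 of 6 pairs, and OIS-shA1 was below OIS in 6 of 6 and above Grow-shA1 in 4 of 6. The mean differences were 0.27 in OIS minus Grow and 0.14 in OIS-shA1 minus Grow-shA1. Among all windows of 4 adjacent A bins the first stood at the 86.0th percentile, so larger values were not rare in the genome. The mean of OIS-shA1 minus OIS was -0.17, at the 50.9th percentile of those windows, whose median was also -0.17.
The largest difference was that between bins 3 and 4, which hold MMP1, MMP3 and MMP13. This pair scored 1.66 in Grow, 1.57 in Grow-shA1, 2.13 in OIS and 2.00 in OIS-shA1, with both RAS maps above both Grow maps. The pair of bins 1 and 2 scored 1.93, 1.87, 2.30 and 2.06 in the same order. Bins 2 and 3, which are also neighbours, scored only 0.74 in Grow, 0.76 in Grow-shA1, 0.84 in OIS and 0.73 in OIS-shA1. The border between them is the HindIII site printed above that lies 1182 bases from the start of MMP8, and across it contact differed by 0.094 in OIS minus Grow. In every map the cluster thus consisted of 2 pairs of bins, with more contact inside a pair than between bins 2 and 3.

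With the 10 centromere-side flanking bins the cluster's mean score was -0.46 in Grow, -0.48 in Grow-shA1, -1.21 in OIS and -1.15 in OIS-shA1, over 40 pairs. OIS was below Grow in 32 of the 40 pairs, and OIS-shA1 below Grow-shA1 in 37. Most of this lay in the 5 outer bins, which hold ARHGAP42 and PGR and of which 3 are B in Grow. There the score was -0.88 in Grow, -0.74 in Grow-shA1, -2.23 in OIS and -1.87 in OIS-shA1, over 20 pairs. In the 5 inner bins, with TRPC6, YAP1 and BIRC3, it was -0.029, -0.22, -0.19 and -0.44. The pair of bin 3 with the PGR bin (chr11:100995851-101196882) had the lowest difference of all local pairs. It scored -1.60 in Grow, -1.60 in Grow-shA1, -4.90 in OIS and -3.66 in OIS-shA1. The difference of -3.30 without shA1 and of -2.06 with it was read from 1 pair of bins in 1 map each, and its counting error is unknown.

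With the 10 telomere-side flanking bins, which were all A in Grow, the mean score was -0.14 in Grow, -0.15 in Grow-shA1, -0.14 in OIS and -0.28 in OIS-shA1. OIS was below Grow in 20 of the 40 pairs, and OIS-shA1 below Grow-shA1 in 28. The 5 inner bins, which reach from DYNC2H1 to DDI1, were at -0.33 in Grow and -0.15 in OIS, and at -0.38 in Grow-shA1 and -0.36 in OIS-shA1. The 5 outer bins, with PDGFD, a growth factor gene, and the caspase genes, were at 0.055 in Grow and -0.13 in OIS, and at 0.078 in Grow-shA1 and -0.20 in OIS-shA1. Bin 3 with the PDGFD bin (chr11:104001439-104199938) scored 0.033 in Grow, 0.057 in Grow-shA1, -1.02 in OIS and -0.46 in OIS-shA1, so here 2 A bins were in less contact in OIS. Over both flanks the difference was -0.38 in OIS minus Grow and -0.40 in OIS-shA1 minus Grow-shA1. The interaction over both flanks was -0.021, which averages values of opposite sign. It was 0.083 on the centromere side, with 0.22 in the 5 outer bins there, and -0.12 on the telomere side.

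**Figure D5:**
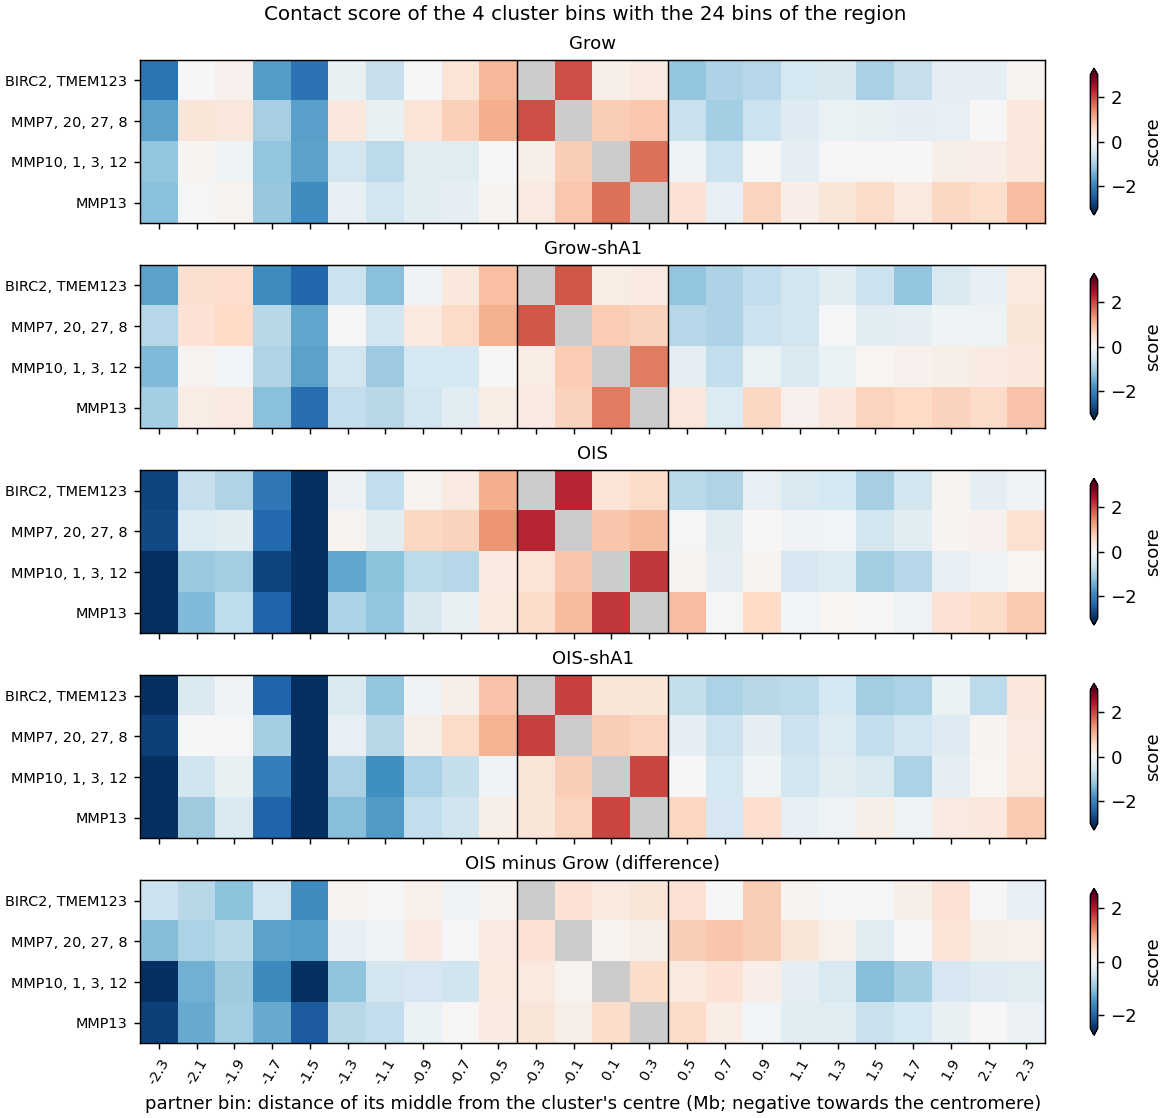
Contact scores of the 4 cluster bins (rows, named by gene starts) with the 24 bins of the region (columns, by distance from the cluster's centre in Mb) in the 4 maps and for OIS minus Grow. Colours stop at 3 score units either way for the maps and at 2.5 for the difference, vertical lines bound the cluster, and grey cells are bins paired with themselves. Blue marks scores below 0, and the deepest blue in OIS is on the centromere side, where the pair of bin 3 with the PGR bin scored -4.90.

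The bins of chromosome 11 whose distal change was most like the cluster's were found by the correlation of their profiles of OIS minus Grow, taken as means over 5 adjacent partner bins, among 602 bins outside the region. The highest was the bin chr11:127800021-127999788, which holds no protein-coding start, with r = 0.78 over 67 means. It was followed by chr11:107999543-108203742, with the starts of NPAT and ATM, the DNA damage kinase gene, with r = 0.75 over 71 means, and by its neighbour chr11:107792015-107999542, with CUL5, ACAT1, RAB39A and SLC35F2, with r = 0.71 over 70 means. The other 2 were a bin with no protein-coding start (chr11:126598830-126800957, r = 0.69) and the bin with the start of KIRREL3 (chr11:126800958-127001583, r = 0.67). The first and the last of the 5 are B bins in Grow, so their distal B contact is between like bins, unlike that of the cluster. The median r over all 602 bins was -0.0083. These bins share their partners and maps, and the values are a description. The 5 had differences of distal B contact between -0.35 and -0.59 in OIS minus Grow and between -0.32 and -0.63 with shA1. Their interactions lay between -0.040 and 0.028, and those of the cluster bins between 0.21 and 0.35. The cluster's interactions contain the value by which it was chosen, so the 2 ranges are given side by side only.

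The other MMP genes, which lie elsewhere in the genome, did not share a common value. Of 14 further MMP genes, 12 lay in kept bins, and 5 of these 12 bins passed the limit of -0.3 in OIS minus Grow, against 12.6% of all bins, with a median of -0.21 against -0.087 over all kept bins. MMP15 was at -0.51, MMP11 at -0.47, MMP21 at -0.41, MMP9 at -0.34 and MMP2 at -0.31. Of the 12 bins, 8 were A in Grow. The bins of MMP2 and MMP9 were B, with distal B scores of 0.46 and 0.44 in Grow. Their distal B contact is thus between like bins, unlike that of the cluster. MMP14, the membrane-type activator of MMP2, was at -0.11 and MMP16 at 0.14. With shA1, 2 of the 12 passed, against 10.9% of all bins. These were MMP15 at -0.41 and MMP9 at -0.39, and the median was -0.12. None of the bins of TIMP1 to TIMP4, the inhibitors of MMPs, passed, and they lay between -0.19 and -0.092.
The secretory phenotype loci were listed together with CDKN2A and CDKN2B, which the study names apart from its key secretory factors. The loci of this list lay in 7 kept bins, of which 2 passed in OIS minus Grow, against 12.6% of all bins. These were the bin of CDKN2A, at -0.46, and that of CXCL2 and CXCL3, at -0.34. IL1A and IL1B, which share a bin, were at -0.27, CXCL1 and CXCL8 at -0.17, CSF2 at -0.18 and IL6 at 0.099. The interaction was 0.36 in the CDKN2B bin, 0.27 in the CDKN2A bin, 0.26 in the IL1A and IL1B bin, 0.21 in the IL6 bin, 0.12 in the CXCL2 and CXCL3 bin, 0.10 in the CXCL1 and CXCL8 bin and -0.039 in the CSF2 bin. All 7 bins were A in Grow, and over the A bins of the genome the median interaction was 0.060, with 27.5% below 0. With 1 map per condition the values of the loci could not be told from one another by a test.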

How the data were processed

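Per the authors' methods, Hi-C libraries were made with HindIII and ligation within nuclei, reads were aligned to hg19 with HiC-Pro, and contacts were counted in bins of about 200 kb, balanced by iterative correction and corrected for distance. The deposited values are contact scores for pairs of bins on the same chromosome. They have both signs, and the logarithm base and the prior are not given in the sources used here, so differences stay in score units and are not folds. The files hold no read counts, so counting error and depth in reads are unknown. Pairs listed per map numbered 4631800 in Grow, 4358563 in Grow-shA1, 4123451 in OIS and 4032189 in OIS-shA1. Bin coordinates were taken from the deposited bin list, whose chromosome ends equal the GRCh37 lengths for 24 of 24 chromosomes.

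Bins were kept where at least 50% of the pairs on their chromosome had a value in each map, which left 13567 bins on the autosomes and X. Means were taken over pairs listed in all 4 maps, over 2 Mb apart for distal contact, with at least 10 pairs. Bins were put in A or B by their compartment score in Grow, for all maps unless stated, and unlisted pairs entered that score as 0. Protein-coding genes were placed by their start in GENCODE lifted to GRCh37. Sequences came from GRCh37 and RefSeq. The scripts were tested on simulated data and ran in Python 3.11.15 with NumPy 2.4.6 and pandas 2.3.3. With 1 map per condition no test between conditions was possible.

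The members, the gene lists and the alternatives were chosen with earlier results of these data known. The named genes were the MMP genes of the cluster and protein-coding genes of flanking bins that are described. Further ones lay in the 3 lowest and the 3 highest blocks by OIS minus Grow and in the 5 most similar bins. Lists for context were other MMP and TIMP genes, and secretory phenotype loci with CDKN2A and CDKN2B. Further runs and pairs were named after their values were seen. MMP23B and MMP25 lay in bins that were not kept. Some items are not reported here. Alternatives changed the scale, clipping or centring of scores, the treatment of unlisted pairs, the bin filter, the distance, the summary, the compartments, the cluster bins, the limit for the reach and the block size.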

Additional observations from a re-analysis of the deposited data

Results flagged for a closer look

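For 4 blocks of chromosome 11 the cluster's contact differed in opposite directions between the 2 RAS comparisons, by at least 0.1 in each. For the block at chr11:65004765-69999598 it was 0.32 without shA1 and -0.26 with it, an interaction of -0.586 over 20 pairs. For chr11:40000340-44995234 it was -0.20 and 0.11 (interaction 0.305, 28 pairs), for chr11:55000111-60000542 -0.10 and 0.20 (interaction 0.308, 47 pairs) and for chr11:124999788-129999862 -0.15 and 0.15 (interaction 0.304, 98 pairs). These differences were not tested, since each rests on 1 map per condition.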

How the results depend on the processing

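Alternatives are compared with the SD over the 4 cluster bins or over pairs, since there are no replicates. No paired analysis was possible because each condition has 1 map. Distal contact with B bins kept its direction in OIS minus Grow under all 16 alternatives (-0.94 to -0.075), in OIS-shA1 minus OIS under all 16 (0.11 to 0.26) and in OIS-shA1 minus Grow-shA1 under 15 of 16. Of the 2 RAS comparisons, with the one without shA1 given first, it was -0.0752 and 0.0413 with unlisted pairs as 0 (OIS-shA1 minus OIS 0.111), -0.830 and -0.496 with the compartments of each map, -0.945 and -0.628 with the top and bottom 20% of bins, and -0.693 and -0.464 for the MMP1 and MMP3 bin alone. Distal contact with A bins, near 0 as reported, was 0.113 and 0.0789 with centred maps (OIS-shA1 minus OIS 0.0178), -0.208 and -0.0577 with the compartments of each map (OIS-shA1 minus OIS 0.138) and 0.0967 and 0.111 with the top and bottom 20% of bins. In OIS minus Grow it was also -0.0863 with scores divided by their SD and -0.0203 with unlisted pairs at the lowest score. In OIS-shA1 minus OIS it was 0.0223 for partners at 2 to 50 Mb and -0.0560 for the MMP1 and MMP3 bin alone. Contact within the cluster in OIS minus Grow was 0.106 with scores divided by their SD. Contact with the flanks kept its direction under all 5 alternatives in both RAS comparisons, from -0.72 to -0.20 in OIS minus Grow. The reach, which counts the 4 cluster bins by construction, was 11 bins at 25% of the cluster mean and 5 bins under the other 4 alternatives, and at 75% of the mean only 3 of the 4 cluster bins passed. The share of blocks that were lower in OIS than in Grow was 44.4% with unlisted pairs as 0. The compartment score difference was 0.0551 and 0.0595 with a component per arm, and -0.298 in OIS minus Grow for the MMP1 and MMP3 bin alone. The cause was not tested for any of these. The absence of counts limits all values, since the counting error of none of them is known.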
